A study of Mus musculus with 9 samples.

Results

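The lysosomal cathepsins and legumain are the proteases that break down protein in the lysosome. The 9 genes described here, Ctss, Ctsc, Ctsh, Ctsb, Ctsl, Ctsz, Lgmn, Ctsd and Ctsa, were chosen by name among 18193 genes. They had 20 of the 34945 probe sets with 1 gene symbol, and each gene was represented by its brightest one on average over the 9 arrays. All 9 main probe sets lay above the intensity filter of 5.91 on the log2 scale. Of the 11 further probe sets, 7 did.

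Retinas came from female BALB/c mice (spelled Babl/c by the submitters), an albino strain, aged 10 weeks. The mice spent 14 days under white light-emitting diode (LED) light with a colour temperature of 7378K, the bluer of the lights, or of 2954K, or in a relatively dark place as controls. Both LED groups met 1000 lx, and a 12 h on, 12 h off cycle is given for all 3 groups, although no illuminance is stated for the controls. Each of the 9 arrays, 3 per group, measured a pool of 3 right-eye neurosensory retinas, separated from the pigment epithelium, on an Affymetrix mouse genome array. Each group had n = 3 pools. The limma p-values, from a linear model per gene, rest on the spread between pools within the groups. That spread was shared over all 3 groups and moderated over all genes tested. The main permutation comparison below sets both LED groups together against the controls.

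Most cathepsins are cysteine proteases that are made as inactive precursors, sorted to the lysosome and activated by cleavage in its acid interior. Cathepsin D is an aspartic protease and cathepsin A a serine carboxypeptidase, while legumain cuts after asparagine and helps to mature several cathepsins. In the eye they serve the pigment epithelium, which digests shed outer segments, and microglia, the resident phagocytes, in which cathepsin S also trims the invariant chain of MHC class II.

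The arrays were not alike in 3' bias or in neighbouring tissue. The 3' bias was read from Gapdh and beta-actin, as the log2 signal of their 3' probe sets minus that of their 5' ones. This difference is larger in degraded or short-copied RNA. It was 1.80, 1.67 and 1.55 in 7378K 1 to 3. It was 2.78, 0.21 and 1.05 in 2954K 1 to 3 and 0.33, 0.20 and 0.42 in controls 1 to 3. The dap spike-in, which is no retinal RNA, gave 2.69, 2.81 and 2.55 in 7378K 1 to 3. It gave 2.73, 0.89 and 1.92 in 2954K 1 to 3 and 1.26, 0.79 and 1.63 in controls 1 to 3. Degraded retinal RNA and short copying were not told apart. In both measures all 7378K arrays lay above all controls, so light and the 3' minus 5' difference cannot be told apart in that contrast. Tyrp1, a melanin synthesis gene of pigment cells, was highest in 2954K 3 (12.15) and control 3 (10.40). For the lens gene Crybb2, control 3 read 14.75, 2954K 3 read 12.63 and 7378K 3 read 9.99. No other array exceeded 7.69 for Crybb2, so replicate 3 was its highest in all groups. All 9 rod markers measured passed the filter, and 3 of them, Prph2, Rom1 and Cnga1, fell under 7378K light. The pigment epithelium gene Rpe65 lay between 9.73 and 11.83 on all arrays.

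Under both lights Ctss and Ctsc were higher than in the dark environment, and they were the members that rose by the test. Lgmn was lower under 7378K light. The other 6 genes did not pass the test under either light. Against control, 2 of the 9 members rose and 1 fell under 7378K light (limma, adjusted p under 0.05), where 3.52% of all 12765 genes tested passed, 2.36% upward and 1.16% downward. Under 2954K light 2 rose and 0 fell, where 1.22% of all genes passed, 1.03% upward and 0.188% downward. The members' median log2 difference was 0.27 under 7378K light and 0.15 under 2954K light, beside 0.04 and 0.01 over all genes. These comparisons share the control arrays.

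**Figure D1:**
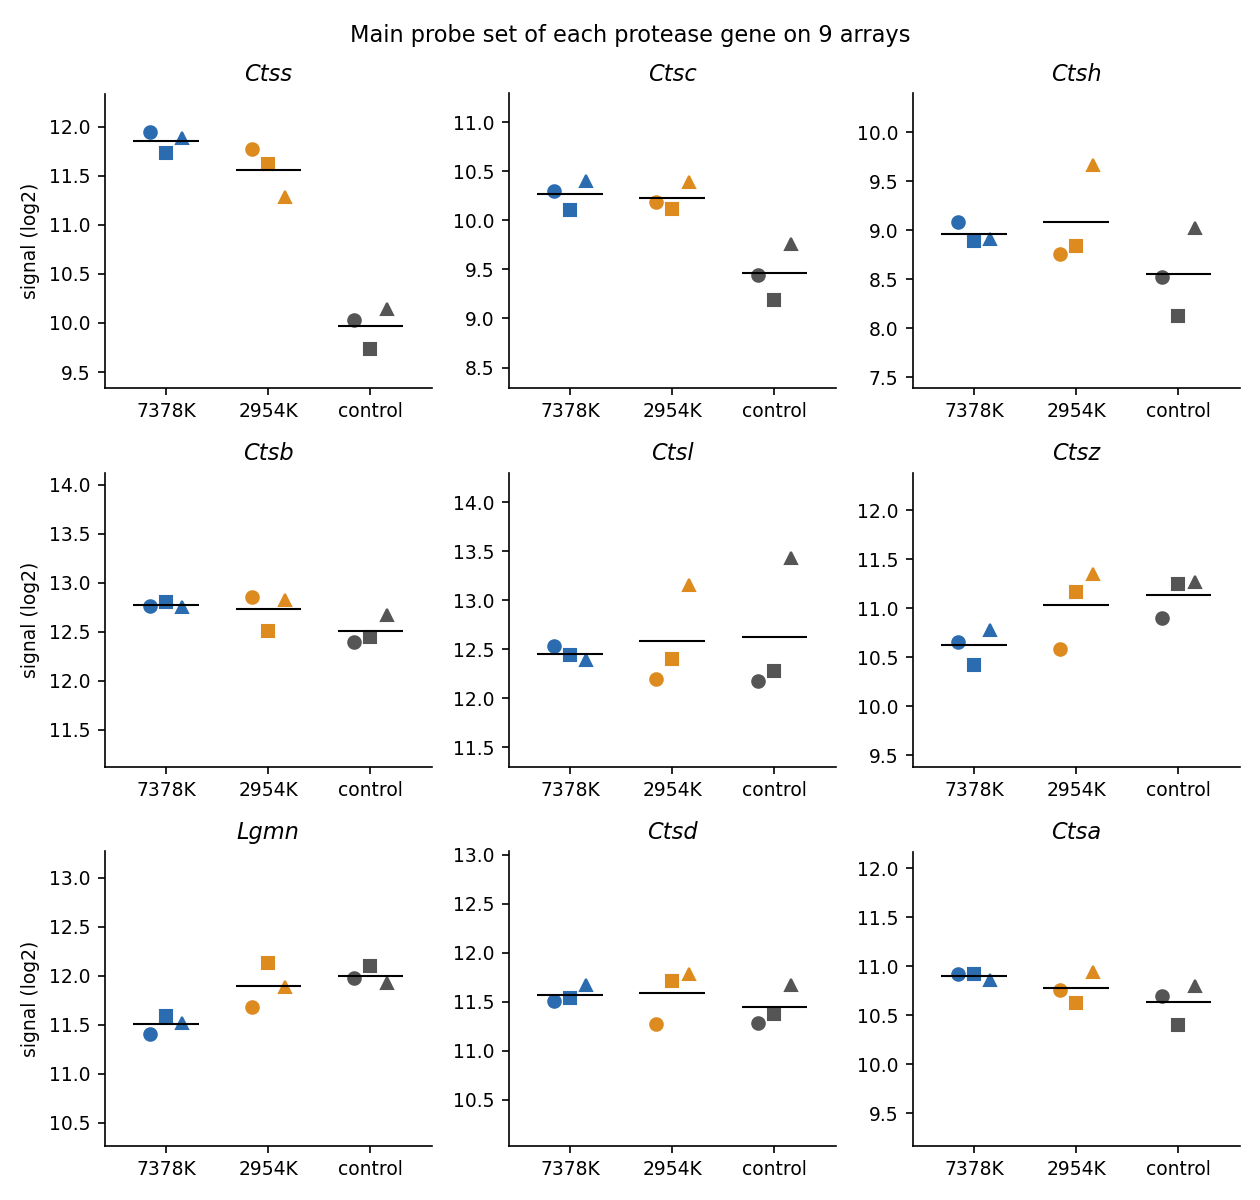
Signal (log2) of the main probe set of each gene in the 7378K, 2954K and control arrays. Circles, squares and triangles are replicates 1, 2 and 3, bars are group means, and every panel spans the same log2 range. Ctss and Ctsc lie higher in all 6 LED arrays than in all 3 controls, and within the 2954K and the control group Ctsl and Ctsh are highest in the third array.

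Ctss encodes cathepsin S, an endopeptidase of microglia and other antigen-presenting cells that, unlike most of the family, stays active at neutral pH. Its signal was 11.94, 11.73 and 11.89 in 7378K 1 to 3, 11.77, 11.63 and 11.29 in 2954K 1 to 3, and 10.03, 9.74 and 10.14 in controls 1 to 3. All 6 LED arrays stood above all 3 controls, and the 2 LED groups overlapped. The rise was 3.70-fold under 7378K light (95% confidence interval 2.99 to 4.58, adjusted p = 1.32e-05) and 3.01-fold under 2954K light (2.44 to 3.73, adjusted p = 0.00010). Both calls held in all 23 other settings tried, where the log2 difference ranged between 1.71 and 1.97 for 7378K and between 1.48 and 1.81 for 2954K.

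Ctsc encodes dipeptidyl peptidase I, which removes dipeptides and activates the granule proteases of leukocytes. Its signal was 10.30, 10.11 and 10.40 in 7378K arrays 1 to 3, 10.18, 10.11 and 10.40 in 2954K arrays 1 to 3, and 9.44, 9.19 and 9.76 in controls. Again every LED array exceeded every control, and the LED groups lay close to each other. The rise was 1.75-fold under 7378K light (95% interval 1.39 to 2.20, adjusted p = 0.013) and 1.70-fold under 2954K light (1.36 to 2.14, adjusted p = 0.029).

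The calls of Ctsc were less stable than those of Ctss. Under 7378K light the call ended without control 1, control 2, 7378K 1 or 7378K 3 (adjusted p = 0.057 to 0.075). It also ended when the 3' minus 5' value of each array entered the fit as a covariate (log2 difference 0.78 beside 0.81 without it, adjusted p = 0.13). All 7378K arrays had a larger value than all controls, so this fit cannot tell that value and light apart. Under 2954K light the call held without control 3 or 2954K 2 and ended in the other 7 fits that left out 1 array (adjusted p up to 0.142), and with that covariate (0.75, adjusted p = 0.11). The mean of its 3 probe sets, of which 2 lay below the filter, gave 0.03 under 7378K light and 0.52 for 2954K (adjusted p = 0.98 and 0.71).

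**Figure D2:**
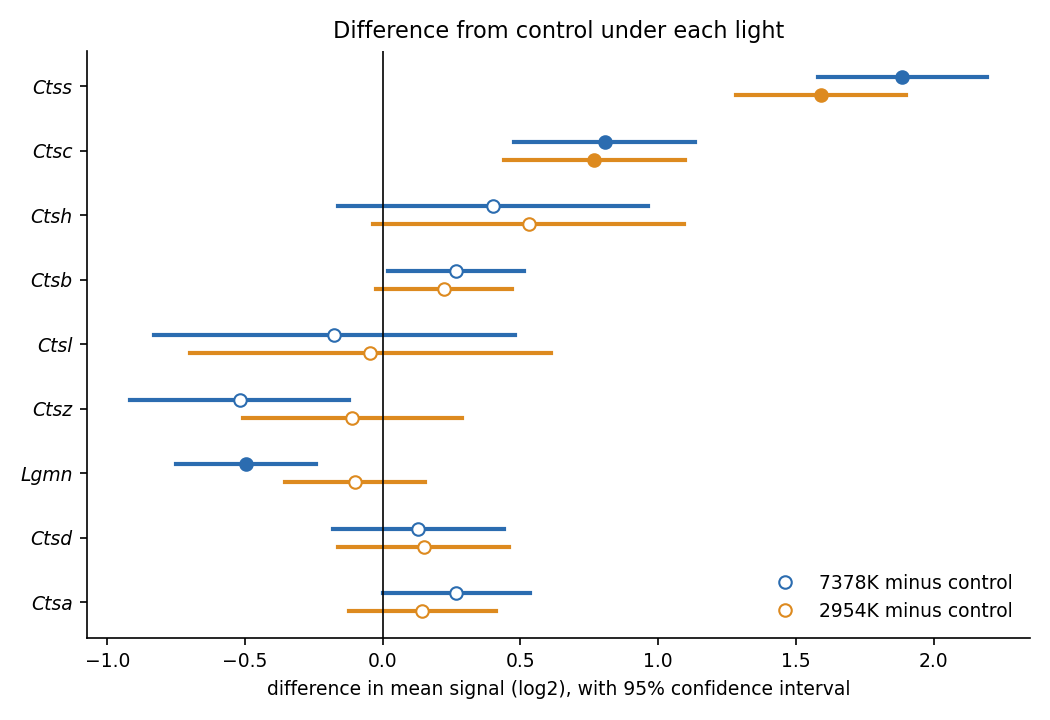
Difference in mean log2 signal from control, with 95% confidence intervals, for each gene under 7378K (blue) and 2954K light (orange); filled points passed the test at an adjusted p under 0.05. Ctss and Ctsc are filled under both lights and Lgmn under 7378K light.

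On these arrays the log2 difference of Ctss from control was above that of each other member, and its size beside them is given as a description. Within each array the signal of a member was subtracted from that of Ctss, and the mean over 6 LED arrays was compared with that over 3 controls. Between LED and control arrays this quantity differed by 0.95 for Ctsc, 1.27 for Ctsh, 1.49 for Ctsb, 1.53 for Ctsa, 1.60 for Ctsd, 1.85 for Ctsl, 2.04 for Lgmn and 2.05 for Ctsz. Ctss was chosen for this with its rise already known, and all 8 comparisons share its values. The separation of LED from control arrays in each (two-sided exact permutation p of 0.0238, the smallest that 6 against 3 arrays allow) therefore follows from that choice and supports nothing further. Within 7378K or 2954K alone the differences lay between 1.08 and 2.41 for 7378K and between 0.82 and 1.70 for 2954K.

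Most, but not all, microglial markers tested were higher in the LED arrays, as Ctss and Ctsc were. The log2 of the summed signal of 13 microglia and macrophage markers lay between 12.52 and 12.61 under 7378K light, between 12.45 and 12.56 under 2954K light and between 10.90 and 11.34 in controls. Of 10 markers tested, 6 rose under each light, namely Aif1, Csf1r, C1qa, C1qb, Ly86 and Tyrobp, and Tmem119, Itgam and Trem2 lay below the filter. The other 4 did not pass: P2ry12, a receptor of resting microglia, was at -0.44 for 7378K and -0.08 for 2954K, the chemokine receptor gene Cx3cr1 at 0.60 and 0.68, Laptm5 at 0.55 and 0.33, and Cd68 at 1.07 and 1.09 (log2 differences from control, adjusted p = 0.098 to 0.96). Pools of whole retina were measured, so more cells of a type and more RNA per cell cannot be told apart. The part of microglial number in the rise of Ctss and Ctsc was not tested.

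**Figure D3:**
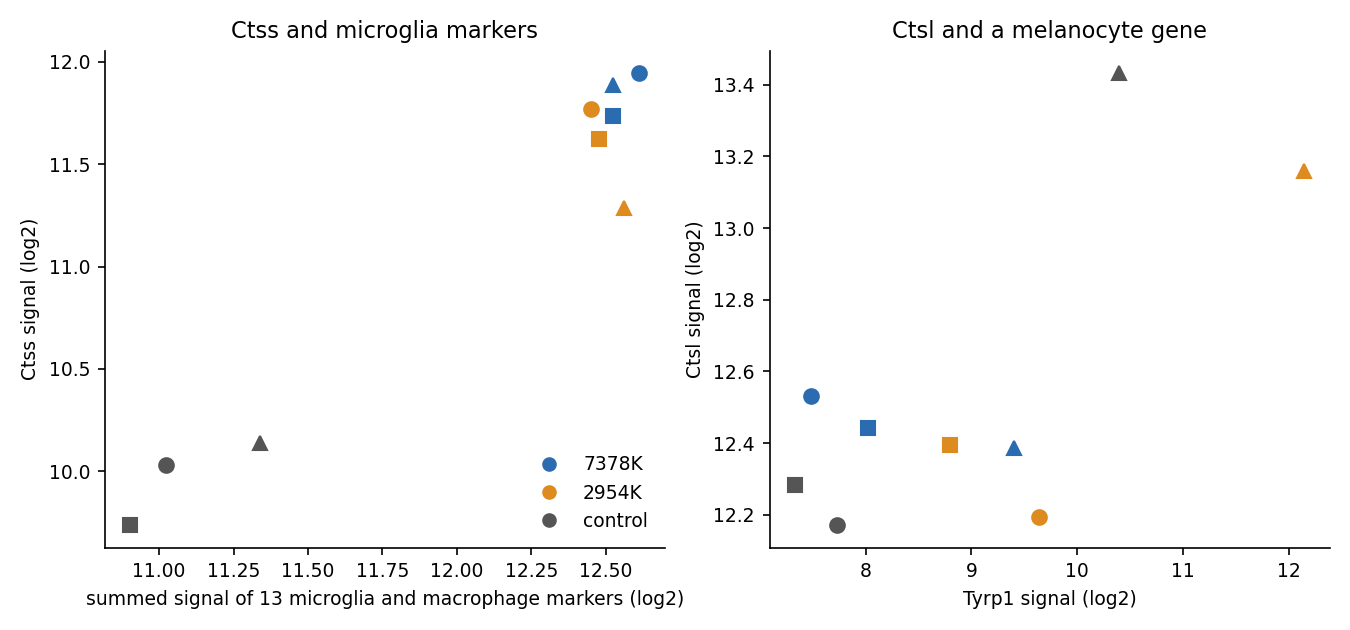
Ctss signal against the summed signal of 13 microglia and macrophage markers, and Ctsl signal against Tyrp1 signal, all on the log2 scale. Colours are groups, and circles, squares and triangles are replicates 1, 2 and 3. The 6 LED arrays lie above the controls on both axes of the first panel, and control 3 and 2954K 3 stand apart in the second.

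The windows around the start sites of both genes that rose and of Ctsd, which did not pass the test, are shown so that their letters can be compared. RefSeq windows of build GRCm38.p6, 250 bases before to 50 after a start, were found for 7 of the 9 genes, in 9 windows. Ctsb and Ctsh had no window and were not searched. On both strands 7 short motifs were searched, of which the 3 longest were shortened to 9 letters. GAGGAAGT, bound by PU.1, the master transcription factor of myeloid cells, was found in the windows of Ctss and Ctsc and in 3.20% of all 32851 windows. CACGTG, the core of the element bound by the lysosomal regulator TFEB, was found in a window each of Ctsd, Ctsl, Ctsa and Lgmn and in 7.15% of all windows. Ctsa and Lgmn each had a further window, at another start, that did not hold it. In the sequences, capitals mark these letters. ACTTCCTC, the PU.1 motif read on the other strand, begins 2 bases before the start of Ctss (chr3:95526536-95526835, plus strand) and 151 bases before that of Ctsc (chr7:88277835-88278134, plus strand), and CACGTG begins 245 and 98 bases before that of Ctsd (chr7:142387778-142388077, minus strand, printed in the direction of the gene).
Ctss: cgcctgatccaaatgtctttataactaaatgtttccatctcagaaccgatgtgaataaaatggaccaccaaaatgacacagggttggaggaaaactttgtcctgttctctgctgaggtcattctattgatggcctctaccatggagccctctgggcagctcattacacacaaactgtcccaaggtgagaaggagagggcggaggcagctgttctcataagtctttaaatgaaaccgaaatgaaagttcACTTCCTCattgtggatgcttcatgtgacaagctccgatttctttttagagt
Ctsc: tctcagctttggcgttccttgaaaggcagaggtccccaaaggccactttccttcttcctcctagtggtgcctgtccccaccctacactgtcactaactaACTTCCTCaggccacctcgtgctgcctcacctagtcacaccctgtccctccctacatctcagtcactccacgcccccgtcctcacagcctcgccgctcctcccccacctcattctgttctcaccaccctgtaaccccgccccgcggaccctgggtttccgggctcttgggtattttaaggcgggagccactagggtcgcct
Ctsd: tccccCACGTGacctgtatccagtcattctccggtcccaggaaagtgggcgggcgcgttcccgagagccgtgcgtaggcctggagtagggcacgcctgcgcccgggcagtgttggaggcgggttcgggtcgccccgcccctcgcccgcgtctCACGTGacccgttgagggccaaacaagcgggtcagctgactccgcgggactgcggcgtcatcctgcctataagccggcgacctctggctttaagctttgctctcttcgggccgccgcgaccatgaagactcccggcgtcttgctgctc

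Of the other motifs, TTCNNNGAA (STAT factors, 8.30% of all windows) was found in Ctsc, and GAAANNGAA (interferon response factors, 8.56%) in Ctss, 21 bases before its start. GTCACGTGA, a longer form of the TFEB element that holds CACGTG, was found in a window each of Ctsa and Ctsd and in 0.782% of all windows. GGGACTTTC (NF-kB, 0.353%) and TGANTCA (AP-1, 7.81%) were found in 0 of the 9 windows. The window of Ctsz held none of the 7 motifs. A match of letters is no evidence of binding, and the motifs were chosen with the rise of Ctss known. Spi1, which encodes PU.1, was not tested because its mean over all 9 arrays lay below the intensity filter, with group means of 5.17 under 7378K light, 6.09 under 2954K light and 6.21 in controls, so that the 7378K mean lay below the filter value and the others above it.

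Further cysteine exopeptidases were Ctsh, an aminopeptidase, and Ctsz, a carboxypeptidase also called cathepsin X. Ctsh measured 9.08, 8.89 and 8.91 in 7378K arrays 1 to 3, 8.76, 8.84 and 9.67 in 2954K arrays 1 to 3, and 8.53, 8.12 and 9.02 in controls. Control 3 lay among the 7378K arrays, so the groups overlapped, and the differences of 0.40 under 7378K light and 0.53 under 2954K light did not pass (adjusted p = 0.38 and 0.41). Its other probe set gave 0.91 and 0.73 (adjusted p = 0.17 and 0.44, over all probe sets).

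Ctsz gave opposite signs on its own probe sets. The main set measured 10.66, 10.42 and 10.78 in 7378K arrays 1 to 3, 10.58, 11.16 and 11.35 in 2954K arrays 1 to 3, and 10.90, 11.25 and 11.27 in controls. The 7378K arrays lay below all controls, yet the log2 difference of -0.52 did not pass (95% interval -0.92 to -0.12, adjusted p = 0.13), and it was -0.17 with the 3' minus 5' covariate. The set 1417870_x_at gave -0.46. The set 1417869_s_at gave 0.35, with 9.79 ± 0.14 under 7378K light and 9.44 ± 0.10 in controls (SD, adjusted p = 0.12), so no direction is given for this gene. Spreads at least as wide between a gene's probe sets in this contrast were seen in 27.8% of the 5867 genes with more than 1 set past the filter.

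Ctsb, a cysteine protease with endopeptidase and peptidyl-dipeptidase action and one of the brighter members, showed the widest disagreement between probe sets. The main set measured 12.77, 12.80 and 12.75 in 7378K arrays 1 to 3, 12.86, 12.51 and 12.83 in 2954K arrays 1 to 3, and 12.39, 12.45 and 12.67 in controls. The 7378K arrays lay above all controls by a small margin, with a log2 difference of 0.27 (95% interval 0.02 to 0.51, adjusted p = 0.19), and that under 2954K light was 0.22 (adjusted p = 0.43). Within the 2954K group it was lowest in 2954K 2, the array there with the smallest 3' minus 5' difference. The sets 1417491_at and 1417492_at gave 0.06 and 0.09 under 7378K light.

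A further Ctsb set, 1448732_at, ran the other way. It measured 9.23, 9.15 and 9.20 in 7378K arrays 1 to 3, 8.39, 11.27 and 10.07 in 2954K arrays 1 to 3, and 10.84, 11.31 and 10.88 in controls. Its lowest value came from 2954K 1, the array with the largest 3' minus 5' difference, and its values in 2954K 2 and the controls, with the smallest ones, were the highest. The log2 difference was -1.82 under 7378K light and -1.10 under 2954K light (adjusted p = 0.083 and 0.42). The resulting spread of 2.08 between the Ctsb sets was matched or exceeded by 3.37% of the 5867 genes.

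**Figure D4:**
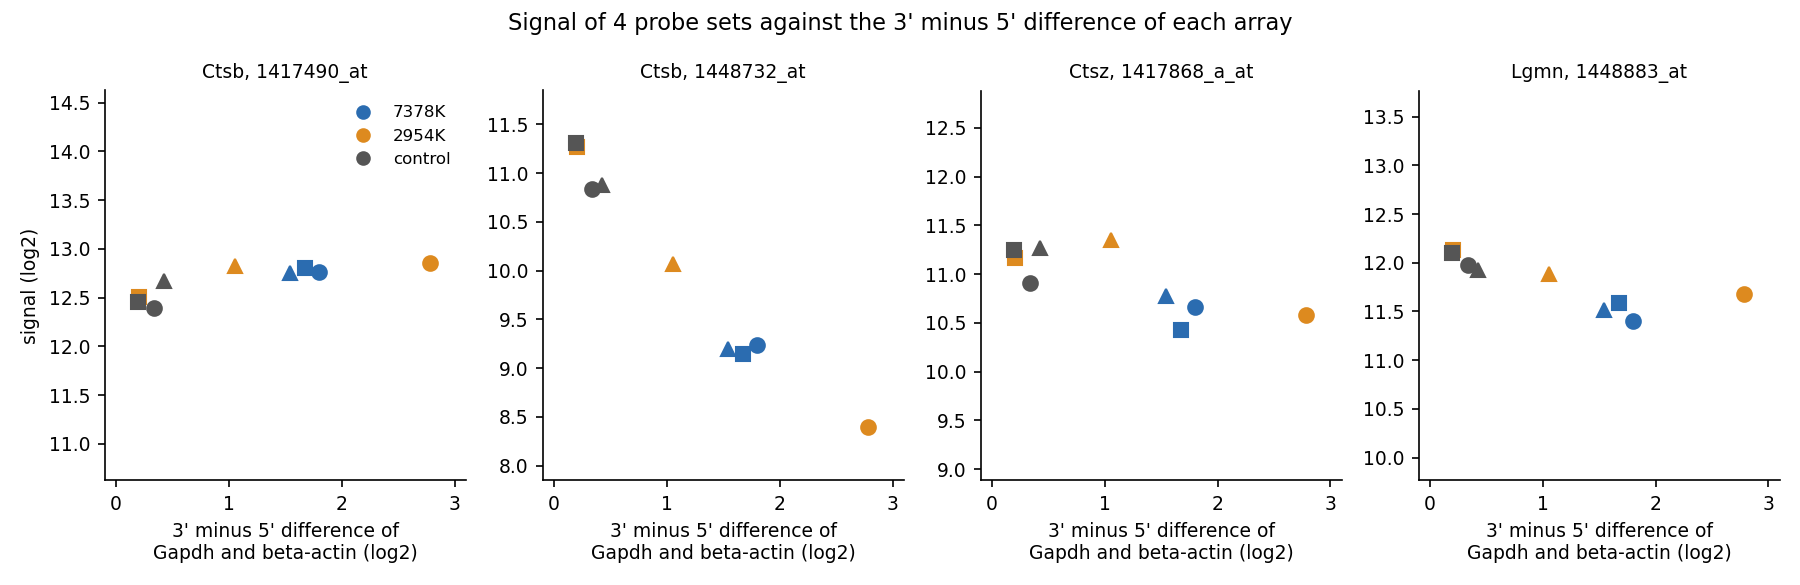
Signal (log2) of both named Ctsb probe sets, the main Ctsz set and the Lgmn set against the 3' minus 5' log2 difference of each array. Colours are groups, circles, squares and triangles are replicates 1, 2 and 3, and every panel spans the same signal range. The set 1448732_at lies lower in all 7378K arrays than in the controls. Within the 2954K group it is at 8.39 in 2954K 1, with the largest difference, and at 11.27 in 2954K 2, with the smallest. Within the 7378K group it is highest, at 9.23, in 7378K 1, which has the largest difference there.

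Lgmn encodes legumain, the asparaginyl endopeptidase. Its signal was 11.41, 11.59 and 11.51 in 7378K arrays 1 to 3, 11.68, 12.13 and 11.89 in 2954K arrays 1 to 3, and 11.98, 12.10 and 11.93 in controls. All 7378K arrays lay below all other arrays, and the 2954K arrays overlapped the controls. Lgmn fell by 0.50 on the log2 scale under 7378K light (SE 0.12, adjusted p = 0.039), and under 2954K light the difference was -0.10 (95% interval -0.36 to 0.15, adjusted p = 0.74). Within the 2954K group Lgmn was lowest in 2954K 1, with the largest 3' minus 5' difference, and highest in 2954K 2, with the smallest. 2954K 1 lay above all 7378K arrays, and within 7378K Lgmn was lowest in 7378K 1 and highest in 7378K 2. As all 7378K arrays had a larger 3' minus 5' difference than all controls, light and this difference cannot be told apart here. With the 3' minus 5' covariate the log2 difference under 7378K light was -0.26 (adjusted p = 0.38). The call held without 2954K 1 or 2954K 2 and ended in the other 7 fits that left out 1 array (adjusted p = 0.052 to 0.182).

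Ctsl, cathepsin L, an endopeptidase found in most tissues, differed more between arrays of a group than between groups. It measured 12.53, 12.44 and 12.39 in 7378K arrays 1 to 3, 12.19, 12.40 and 13.16 in 2954K arrays 1 to 3, and 12.17, 12.28 and 13.43 in controls. Control 3 and 2954K 3 stood above the other 7 arrays. The log2 differences were -0.18 under 7378K light and -0.05 under 2954K light (adjusted p = 0.77 and 0.97), and without control 3 they were 0.23 and 0.36. The sign for 2954K also turned without 2954K 1 (0.15) or 2954K 2 (0.05), so no direction is given.

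Control 3 and 2954K 3 were also the arrays with the most Tyrp1 and the most Crybb2. Tyrp1 was at 9.64 in 2954K 1 and 9.41 in 7378K 3, where Ctsl was at 12.19 and 12.39. The log2 of the summed signal of the 11 pigment epithelium and melanocyte markers lay between 14.73 and 15.49 under 7378K light, between 15.40 and 15.71 under 2954K light and between 14.46 and 15.62 in controls. Of 10 tested, 0 changed by the limma test under either light, and Best1 lay below the filter. The median log2 difference of these 10 from control was -0.17 under 7378K light, with 3 above 0. Under 2954K light it was 0.81, with 9 above 0. In 7378K against 2954K the median was -1.10, with 0 above 0. For 10 lens markers the summed values lay between 7.42 and 12.12 under 7378K light and between 8.08 and 14.38 under 2954K light. In controls they lay between 8.32 and 16.98. The upper ends of these ranges came from 7378K 3, 2954K 3 and control 3. Of 7 lens markers tested 0 changed, and Crybb1, Bfsp1 and Mip lay below the filter. The summed signal of 10 muscle markers was at most 9.64 in 7378K arrays, at most 9.61 in 2954K arrays and reached 11.63 in 1 control, with 0 of 4 changed. Of 7 endothelial markers 0 changed, of 10 Müller glia markers Aqp4 rose under both lights, and the 3 erythrocyte markers measured lay below the filter. The part of carried-over tissue in the values of Ctsl and Ctsh was not tested.

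The aspartic and serine members did not pass the test under either light. Ctsd, the aspartic endopeptidase that does much of the bulk digestion, measured 11.51, 11.54 and 11.67 in 7378K arrays 1 to 3, 11.28, 11.71 and 11.79 in 2954K arrays 1 to 3, and 11.28, 11.38 and 11.67 in controls. The groups overlapped, and the log2 differences were 0.13 under 7378K light (95% interval -0.18 to 0.44) and 0.15 under 2954K light (-0.16 to 0.46). Ctsa, a carboxypeptidase that also protects the lysosomal beta-galactosidase and neuraminidase, measured 10.92, 10.93 and 10.86 in 7378K arrays 1 to 3, 10.76, 10.63 and 10.94 in 2954K arrays 1 to 3, and 10.70, 10.40 and 10.80 in controls. The 7378K arrays lay just above all controls. The difference of 0.27 under 7378K light did not pass (95% interval 0.00 to 0.53, adjusted p = 0.22), nor did that of 0.14 under 2954K light (adjusted p = 0.65). The other Ctsa probe set gave 0.23 under 7378K light and -0.16 under 2954K light (limma adjusted p = 0.83 and 0.92, over all probe sets).

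Counted by overlap, 6 of the 9 members had 7378K arrays entirely above or below the controls, where 36.4% of all genes did, and 2 of the 9 had 2954K arrays so placed, where 15.2% did. An unadjusted limma p under 0.05 was seen for 6 members under 7378K light (22.6% of all genes) and for 2 under 2954K light (13.1%). Between the lights, in 7378K against 2954K, 0 of the 9 members and 0 of 12765 genes (0%) passed the limma test, with 2 members and 519 genes (4.07%) at an unadjusted p under 0.05. Lgmn was lower under 7378K light by 0.39 (log2 difference -0.39, 95% interval -0.65 to -0.14, adjusted p = 0.98) and was the member whose LED groups did not overlap (8.55% of all genes). For Ctss the difference between the lights was 0.29 (-0.01 to 0.60), and for Ctsc 0.04 (-0.29 to 0.37).

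Lysosomal genes outside the 9, and genes of protease inhibition, sorting, regulation, uptake and antigen loading, were read from 8 lists. Of 89 of their genes past the filter, 4 rose and 1 fell under 7378K light, where 2.36% of all genes rose and 1.16% fell. Under 2954K light 1 rose and 0 fell, where 1.03% of all genes rose and 0.188% fell. All that rose under either light came from the list of uptake and antigen loading, and the 1 that fell was Ctsf. The medians were 0.16 under 7378K light and 0.15 under 2954K light, beside 0.04 and 0.01 over all genes. Of the 4 cathepsins outside the 9 that were tested, Ctsf, a widely expressed cysteine cathepsin, fell by 0.62 under 7378K light, to 10.25 ± 0.04 against 10.87 ± 0.17 in controls (SD, adjusted p = 0.033), and measured 10.55 under 2954K light. Ctse, an aspartic cathepsin, differed by 1.08 under 7378K light and by 0.69 under 2954K light (adjusted p = 0.098 and 0.42). Ctsk, the osteoclast collagenase, differed by 0.68 under 7378K light and 0.80 under 2954K light (adjusted p = 0.24 and 0.32).

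Their natural inhibitors and partner enzymes showed no call. Of 3 protease inhibitors tested, 0 passed: Cstb, a cytosolic cystatin, differed by 0.40 under 7378K light (0.30 under 2954K light), and Cst3, secreted cystatin C, by 0.04 (0.16). Of 6 other lysosomal peptidases 0 passed, with Scpep1, a serine carboxypeptidase, at 0.48 and 0.43, followed by the tripeptidyl peptidase Tpp1 at 0.09 under 7378K light and the dipeptidyl peptidase Dpp7 at 0.24 under 2954K light. Of 28 glycosidases and lipid hydrolases 0 passed, with medians of 0.19 under 7378K light and 0.13 for 2954K. Among these the alpha-mannosidase Man2b1 was at 0.48 and 0.49 (adjusted p = 0.077 and 0.14), the sphingomyelinase Smpd1 at -0.39 under 7378K light (adjusted p = 0.084), and Grn, progranulin, at 0.80 under 2954K light (adjusted p = 0.12).

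Membrane, sorting and regulatory genes did not pass either. Of 23 genes of the lysosomal membrane and proton pump 0 were called. The pump subunit Atp6v0a1 was at 1.30 under 7378K light (adjusted p = 0.055), the membrane protein Lamp2 at 0.55 and 0.42 (adjusted p = 0.074 and 0.27), and the macrophage protein Cd68 at 1.09 under 2954K light (adjusted p = 0.19). Of 10 sorting genes 0 passed, with Lrp1, an endocytic receptor, at 0.50 for 7378K (0.35 for 2954K) and Nagpa, which uncovers the mannose 6-phosphate tag, at 0.70 under 7378K light. Sort1, sortilin, was at -0.19 under 2954K light. Of 4 transcription factors 0 passed, with Irf8, a factor of microglia, at 0.82 and 0.74 (adjusted p = 0.12 and 0.29), Tfe3, a relative of TFEB, at 0.26 under 7378K light and Mitf, another relative, at 0.44 under 2954K light.

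The calls outside the cathepsins lay in uptake and antigen handling. Of 11 such genes 4 rose under 7378K light and 1 under 2954K light, where 2.36% and 1.03% of all genes rose. Tyrobp, the adaptor of myeloid receptors, rose by 1.66 under 7378K light and by 1.39 under 2954K light on the log2 scale (adjusted p = 0.00049 under 7378K light and 0.0026 under 2954K light). Ifi30, a lysosomal thiol reductase that opens antigens for cathepsins, rose by 0.79 under 7378K light (adjusted p = 0.024) and differed by 0.60 under 2954K light (adjusted p = 0.13). The Fc receptor genes Fcgr3 and Fcer1g rose by 1.19 and 1.04 under 7378K light (adjusted p = 0.029 and 0.044) and differed by 1.03 and 1.06 under 2954K light (adjusted p = 0.10 and 0.078). Tyrobp also stands among the microglia markers.

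The genes whose mean-centred log2 profile over the 9 arrays was closest to that of Ctss, among 12756 others, were Stat3, Pbxip1 and Myo5b, with root mean square differences of 0.206, 0.207 and 0.208, beside a median of 0.856 over all genes. For Ctsc they were Acvr2b, Samd10 and H2-K1 (0.116, 0.118 and 0.120, median 0.445). For Lgmn they were Pcp4l1, Inpp1 and Nelfa (0.0562, 0.0607 and 0.0734, median 0.344).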

How the data were processed

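Retinal mRNA was measured on 9 arrays. The deposited values were log2 signals; per the submitters' processing notes the authors used MAS5 and affy, with no role, order or version stated in the sources used here. Raised to the power of 2, they had a 2% trimmed mean of 500.002 to 500.003 on each array, so arrays had been scaled to a common mean. Array medians were 6.77 to 7.03. Detection calls were not used here.

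Probe sets were named by the platform annotation: of 45101, 34945 had 1 symbol, 932 several and 9160 none, and 64 were controls. Each gene was represented by its brightest probe set on average. Genes under the 40th percentile of probe set means were left out, and 12765 were tested with limma 3.58.1 in R 4.3.3 (lmFit, eBayes with trend, 6 residual degrees of freedom, Benjamini-Hochberg over all genes). Exact permutation tests used scipy 1.17.1, and promoter windows came from RefSeq. The fit was tested on simulated data for 7378K against control. Of genes raised there by 0.5, 1 and 2 on the log2 scale, it called 3.7%, 67% and 93.8%. The labels call the samples biological replicates, and each is 1 pool. The number of arrays limits the precision.

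The members, lists, motifs and tests were chosen with earlier results of these data known. Named list genes were those called, up to 4 a list, or the 2 with the smallest p. Alternatives changed the filter, scaling, probe set rule, covariate, block, array weights and arrays.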

Additional observations from a re-analysis of the deposited data

How the results depend on the processing

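Across the alternatives the calls of Ctss held under both lights, and the other counts depended on the setting. The 3 members changed under 7378K light were 1 when probe sets were averaged per gene, with either 3' minus 5' covariate (Gapdh and beta-actin, or the dap spike-in) or without the trend, 6 with array weights, 5 with only the 2 groups compared, and 1 to 4 when 1 array was left out. Under 7378K light, array weights and the 2-group fit also called Ctsz and Ctsb, array weights Ctsa, and the fit without 2954K 1 Ctsz (-0.52, adjusted p = 0.023). The 2 members changed under 2954K light were 1 with the mean of probe sets, with either of these covariates or pigment markers as the covariate, without the trend, without the third array of each group, with only the 2 groups compared or with every probe set as its own row, and 1 to 2 when 1 array was left out. All genes changed under 7378K light numbered 449, and 255 with the mean of probe sets, 136 with the 3' minus 5' covariate, 71 with the dap covariate, 207 without the trend, 2688 with array weights, 146 without the third arrays, 2174 with only the 2 groups compared and 144 (without 7378K 1) to 1517 (without 2954K 1) when 1 array was left out, with 1211 without 2954K 2, 188 and 170 without control 1 or 2, and 180 and 169 without 7378K 2 or 3. Under 2954K light they numbered 156, and 82, 102 and 92 with the mean of probe sets, the 3' minus 5' and the pigment covariate, 101 without the trend, 384 with array weights, 90 without the third arrays, 68 with only the 2 groups and 79 (without control 2) to 895 (without 2954K 2) when 1 array was left out, with 85 without control 1 and 81 without 2954K 3. Between the lights 0 genes changed, and 29 without 2954K 1, the upper end of 0 to 29 over the fits that left out 1 array, with 0 members in each. The cause of these shifts was not tested, beyond fewer arrays in the fits that leave some out.

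Same-numbered arrays of different groups correlated in their deviations from group means at 0.061 to 0.332 over the genes, with 5 of 9 pairs above 0.1, and 7 of 9 arrays correlated best with their own number in both other groups. Pairs with other numbers ran between -0.265 and 0.092. Not every same-numbered pair exceeded 0.1 and the labels name no shared batch, so the numbers were not taken as pairs, although the values are a hint from the data that same-numbered arrays share something. With the replicate block, 638 genes and 3 members changed under 7378K light and 163 genes and 2 members under 2954K light. With the block and the 3' minus 5' covariate together these were 112 genes and 2 members, and 90 genes and 2 members. The 8 comparisons of Ctss with another member are a description, as Ctss was chosen for its rise. All 8 had an exact p under 0.05, and 0 did without the third arrays or within 7378K or 2954K alone; 0 to 8 did when 1 array was left out, and 6 with averaged probe sets (exact p = 0.0714 for Ctsl and Ctsh). Those with 0 cannot reach the threshold (smallest exact p of 0.0714 without a control array, 0.133 without the third arrays and 0.1 within 1 light), and in each the differences stayed above 0.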
